A study of Mus musculus with 9 samples.

Results

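Collagen hydroxylases and collagen chaperones are the endoplasmic reticulum proteins that modify and fold new collagen chains, and 10 of their genes were followed here: P4ha1, P4ha2, P4ha3, Plod1, Plod2, Plod3, P3h1, P3h3, Crtap and Serpinh1. They were taken by symbol from the 55367 symbols of the count table, and all 10 were found once. RNA of mouse left ventricle was sequenced in bulk in 3 libraries of myocardial infarction treated with BPD (MI+BPD), 3 libraries of myocardial infarction (MI) and 3 libraries of sham surgery (Sham). The design text places the tissue at day 14 after MI and describes BPD as a treatment aimed at the proliferative phase; the labels do not spell out BPD, its dose, its schedule or a vehicle, and they give no strain, sex or age. The tissue is described as infarct core with the surrounding region, which Sham hearts do not have, so part of any difference from Sham could be one of region. The study asked whether BPD treatment goes with less fibroblast activation.

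In collagen synthesis, prolyl 4-hydroxylases turn prolines of the chain into hydroxyproline, which keeps the triple helix stable at body temperature, and lysyl hydroxylases modify lysines that later carry sugars and crosslinks. Both enzyme families, like the prolyl 3-hydroxylases, need iron, oxygen, 2-oxoglutarate and ascorbate. In the heart, fibroblasts are the main makers of fibrillar collagen, and their activation after an infarct builds the scar.

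Depth ran from 14451410 to 19269072 counts per library. Library MI 1 stood apart in markers of other tissue: B and plasma cell markers summed to 372 CPM in MI 1, against at most 32.4 CPM in any other library, and adipocyte markers to 54.8 CPM, against at most 0.366 CPM. CPM here is the count scaled to the size of the library after TMM factors, which adjust each total for its composition. Cardiomyocyte markers (10 genes, none at 0 in all libraries) summed to 47344, 32280.5 and 31824 CPM in MI+BPD, to 19541, 20705 and 33621 CPM in MI, and to 82276, 83577 and 86560.1 CPM in Sham. Fibroblast markers (8 genes) summed to 4861 to 6583 CPM in MI+BPD and 5064 to 5866 CPM in MI, against 1696 to 1927 CPM in Sham. Activated fibroblast markers (4 genes) summed to 2226 to 3991 CPM in MI+BPD and 2438 to 2829 CPM in MI, against 153 to 273 CPM in Sham. In the infarct groups this last sum was mostly Postn, at 1936, 3439 and 3603 CPM in MI+BPD and 2386, 2280 and 2135 CPM in MI. Cthrc1 measured 74.6, 109 and 136 CPM in MI+BPD, against 155, 163 and 106 CPM in MI. Of the 4 genes, 2 had a log2 difference above 0 and 2 below 0 in MI+BPD against MI. Acta2 was not called in MI against Sham (adjusted p = 0.0702, edgeR). In bulk tissue, fewer cells of a type and less RNA per cell cannot be told apart, and the part of these cell markers in the results below was not tested.

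The first comparison set MI beside Sham. Of the 10 genes, 9 rose in MI and 1, P4ha2, did not pass; of all 15138 genes tested, 37% rose and 31.9% fell, 68.9% in all (adjusted p under 0.05 in edgeR's quasi-likelihood test with Benjamini-Hochberg adjustment). The median log2 fold change was 1.69 over the 10 genes and 0.07 over all genes tested. The libraries of MI lay wholly above Sham for 9 of the 10 genes and for 40.1% of all genes, and wholly below for 1 and for 34.3%. The rises spanned a wide range, with P4ha3 and P3h3 at the top and Plod1 at the bottom. The summed level of the 10 genes was 1320.0, 1698 and 1231 CPM in MI, against 523, 544 and 497 CPM in Sham.

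**Figure D1:**
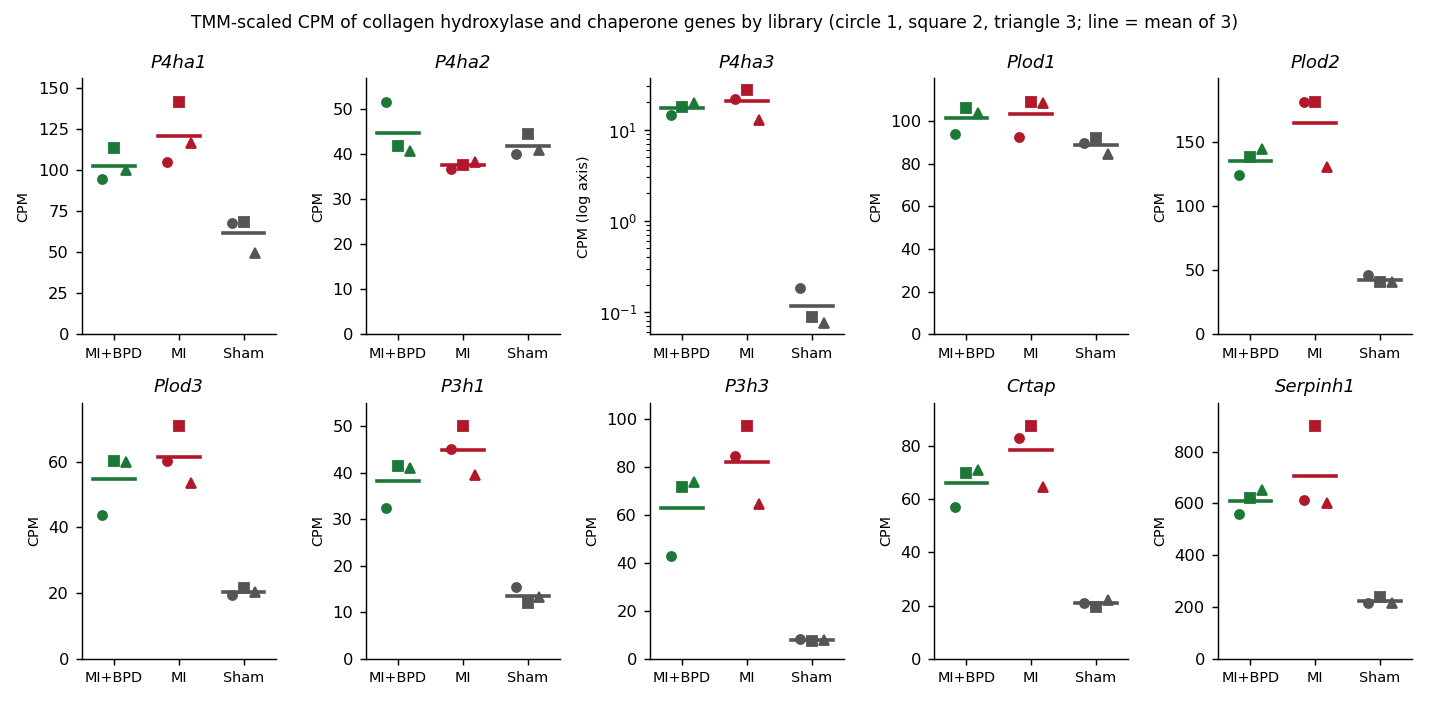
TMM-scaled CPM of each gene in each library, one panel per gene, with MI+BPD, MI and Sham from left to right; symbols mark the library number and lines the mean of 3 libraries. The axis of P4ha3 is logarithmic and all others start at 0. All 3 MI libraries lie above all 3 Sham libraries except for P4ha2, whose MI libraries lie below Sham.

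The P4ha genes encode the catalytic alpha subunits of prolyl 4-hydroxylase, each of which works with P4hb, the protein disulfide isomerase that serves as beta subunit. They moved differently from one another. P4ha3 was nearly silent in Sham, with 2, 1 and 1 counts (0.183, 0.0875 and 0.0762 CPM), and had 546, 668 and 280 counts in MI (21.6, 27.2 and 12.9 CPM). The ratio of the scaled counts, 1494 in MI against 4 in Sham, was 185, with a 95% exact counting interval of 72.2 to 681 that covers counting error only. Its fitted log2 fold change of 7.43 ± 0.47 (SE; adjusted p = 8.51e-06 in edgeR's quasi-likelihood test) depends on the prior count added to so few Sham reads.

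P4ha1, the main alpha subunit of most tissues, measured 105, 142 and 117 CPM in MI, against 67.7, 68.2 and 49.8 CPM in Sham. The groups did not overlap, and the log2 fold change was 0.97 ± 0.15 (SE; adjusted p = 3.99e-04, edgeR). P4ha2, the alternative alpha subunit, measured 36.7, 37.7 and 38.3 CPM in MI, against 39.98, 44.4 and 40.9 CPM in Sham. These libraries were apart as well, with MI below Sham, but the log2 difference of -0.15 ± 0.10 (95% interval -0.37 to 0.06) did not pass (adjusted p = 0.183, edgeR). P4ha2 was called lower in MI when MI+BPD 1 was left out of the fit (-0.17, adjusted p = 0.0472, edgeR), and higher when library totals were the only scaling (0.58, adjusted p = 1.51e-04, edgeR), a setting that puts the median of all genes at 0.81.

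The 250 bases before the start of P4ha1, P4ha2, P4ha3 and Serpinh1 are shown because these genes span the range from hardly changed to the largest rise. They come from RefSeq on GRCm38.p6, written 5′ to 3′ on the strand of the gene, with capitals at ACGTG and GCGTG, the cores of hypoxia response elements, on either strand. The regions are chr10:59323046-59323295 on the plus strand for P4ha1, chr11:54100674-54100923 on the plus strand for P4ha2, chr7:100285270-100285519 on the plus strand for P4ha3 and chr7:99353240-99353489 on the minus strand for Serpinh1.
P4ha1: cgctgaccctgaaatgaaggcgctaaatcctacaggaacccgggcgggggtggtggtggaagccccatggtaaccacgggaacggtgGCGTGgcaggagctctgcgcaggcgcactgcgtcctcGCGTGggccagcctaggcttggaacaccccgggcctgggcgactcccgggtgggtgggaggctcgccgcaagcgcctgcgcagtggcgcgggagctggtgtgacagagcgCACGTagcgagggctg
P4ha2: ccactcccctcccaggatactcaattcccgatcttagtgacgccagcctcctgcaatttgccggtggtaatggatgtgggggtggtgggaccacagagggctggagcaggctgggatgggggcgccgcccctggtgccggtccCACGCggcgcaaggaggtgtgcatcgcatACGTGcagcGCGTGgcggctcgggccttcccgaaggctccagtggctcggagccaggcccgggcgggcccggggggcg
P4ha3: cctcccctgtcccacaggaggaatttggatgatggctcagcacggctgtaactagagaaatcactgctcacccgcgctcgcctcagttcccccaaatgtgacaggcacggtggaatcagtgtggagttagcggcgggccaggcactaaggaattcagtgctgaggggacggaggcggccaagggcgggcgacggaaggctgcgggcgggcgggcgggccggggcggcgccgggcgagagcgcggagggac
Serpinh1: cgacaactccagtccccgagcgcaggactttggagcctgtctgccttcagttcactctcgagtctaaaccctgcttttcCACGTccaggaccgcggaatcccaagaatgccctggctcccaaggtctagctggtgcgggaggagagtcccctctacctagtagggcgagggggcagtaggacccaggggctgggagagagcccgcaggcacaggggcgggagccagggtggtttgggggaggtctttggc

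P4ha1 and P4ha2 held 1 ACGTG and 2 GCGTG each, Serpinh1 held 1 ACGTG, and P4ha3 held neither core. Any link between these cores and the changes in MI was not tested. The promoter table had an entry for 9 of the 10 genes, with 2 entries for P3h1; Plod2 was not matched. ACGTG occurred in 5 of these 10 entries and in 16.6% of the 32851 mouse promoters read over the same length. GCGTG occurred in 6 of the 10 entries and in 28.2% of the promoters. The promoters were not matched to the entries for their share of G and C, which was 53.6% to 70% in the entries. The entry of Crtap, 1 of the 6 with GCGTG, begins 37 bases before the start of Crtap in GENCODE M21. The motifs do not overlap one another in the 4 sequences shown, and a match is a description of letters, not evidence of binding.

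Among the reads of the P4ha genes the balance moved away from P4ha2. There were 34.9, 26.6 and 32.9 reads of P4ha2 per 100 reads of P4ha1 in MI, against 59.1, 65.1 and 82.2 in Sham. The log2 difference of the ratio was -1.12; the groups did not overlap, and the 2-sided exact permutation test gave p = 0.1, the smallest that 3 against 3 libraries allow (0.188 after Benjamini-Hochberg adjustment over the 30 ratio comparisons made). Per kilobase of merged exon length in GENCODE M21, P4ha2 made up 29.9% ± 3.51 of the family in MI and 54.4% ± 4.22 in Sham (SD, n = 3 each). The share of P4ha3 was 15.9% ± 4.33 in MI and 0.148% ± 0.0716 in Sham, and that of P4ha1 was 54.2% ± 3.10 in MI and 45.4% ± 4.17 in Sham. The beta subunit P4hb rose too (log2 fold change 0.90 ± 0.11, adjusted p = 1.15e-04, edgeR), and reads of P4ha1 per 100 reads of P4hb overlapped between the groups, at 25.9, 33.7 and 32.3 in MI and 33.7, 31.1 and 22.8 in Sham (exact permutation p = 0.6).

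**Figure D2:**
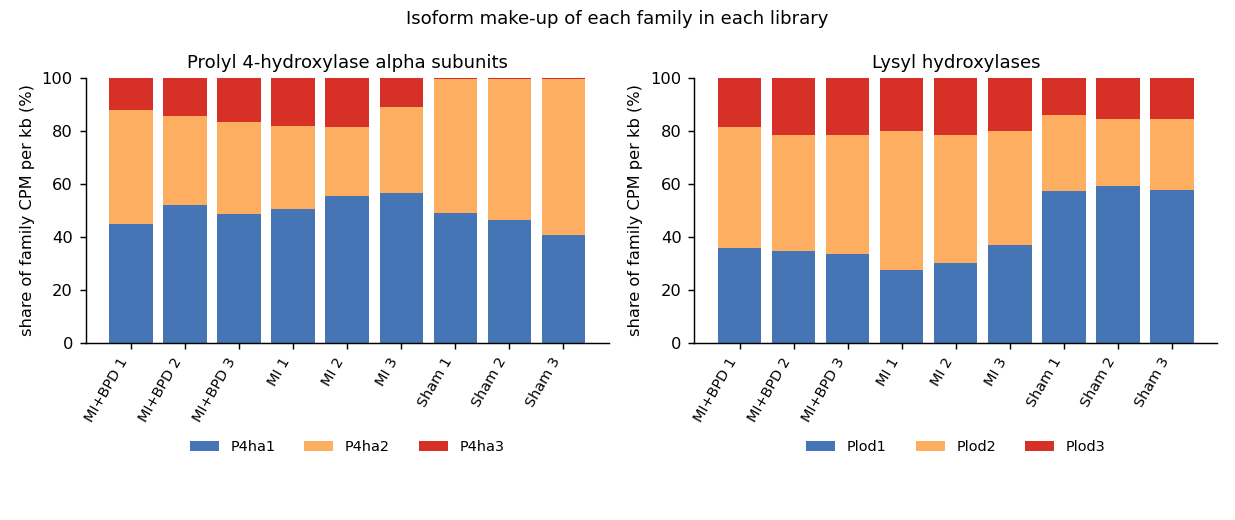
Share of each gene in the summed CPM per kilobase of its family, in percent, for each of the 9 libraries; left, the prolyl 4-hydroxylase alpha subunits, and right, the lysyl hydroxylases. P4ha3 is visible only in MI+BPD and MI, and Plod1 holds at least 57.4% of its family in all 3 Sham libraries and at most 36.8% elsewhere.

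The Plod genes encode the lysyl hydroxylases. Plod2, which acts on lysines in the telopeptides that form the crosslinks of stiff collagen, measured 182, 182 and 131 CPM in MI, against 46.2, 40.8 and 40.9 CPM in Sham. This was a rise of 3.86-fold (95% interval 3.11 to 4.79; log2 1.95 ± 0.14, adjusted p = 1.33e-05, edgeR). Plod3, which also transfers sugars to hydroxylysine, measured 60.1, 70.9 and 53.6 CPM in MI, against 19.6, 21.6 and 20.3 CPM in Sham (log2 fold change 1.59 ± 0.15, adjusted p = 3.78e-05, edgeR). Both genes were higher in every MI library than in any Sham library.

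Plod1, which modifies lysines of the helix, measured 92.6, 109 and 108 CPM in MI, against 89.7, 92.3 and 84.4 CPM in Sham. MI 1 lay only just above the highest Sham library. The log2 fold change was 0.22 ± 0.09, with an adjusted p of 0.0499 in edgeR's quasi-likelihood test. That call was lost in DESeq2 (adjusted p = 0.0981), with median-ratio factors (0.0936, edgeR) and in 7 of the 9 fits that left out 1 library, namely each Sham library, MI 2, MI 3, MI+BPD 2 and MI+BPD 3 (largest adjusted p 0.164, edgeR). Relative to Plod1, Plod2 had 196, 167 and 121 reads per 100 in MI, against 51.5, 44.3 and 48.5 in Sham, a log2 difference of 1.72 with no overlap (exact permutation p = 0.1, adjusted 0.188). Per kilobase, Plod2 made up 48.1% ± 4.75 of the family in MI and 27.1% ± 1.64 in Sham, and Plod1 31.5% ± 4.77 in MI and 58.1% ± 1.0006 in Sham (SD, n = 3 each).

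Annotated exons of Plod3 share 529 bases, 16.1% of their length, with Znhit1 on the opposite strand, and those of Plod2 share 346 bases, 9.32%, with an unnamed model on the opposite strand (GENCODE M21). Whether counting used strand is not given in the sources used here, so part of these reads could belong to the partner. Over all libraries Znhit1 had 3212 counts beside 8233 of Plod3, and the model had 295 counts beside 21022 of Plod2.

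P3h1 and Crtap encode an enzyme and its partner in the complex that, with the proline isomerase Ppib, adds a hydroxyl group to a single proline of type I collagen chains. P3h1 measured 45.1, 49.99 and 39.4 CPM in MI, against 15.4, 11.9 and 13.3 CPM in Sham (log2 fold change 1.73 ± 0.14, adjusted p = 2.35e-05, edgeR). Crtap measured 82.9, 87.4 and 64.6 CPM in MI, against 21.1, 19.3 and 22.2 CPM in Sham (log2 fold change 1.91 ± 0.13, adjusted p = 1.32e-05, edgeR). Both partners were higher in all MI libraries. There were 54.3, 57.2 and 61.0 reads of P3h1 per 100 reads of Crtap in MI and 72.7, 61.5 and 60.1 in Sham, which overlapped (exact permutation p = 0.2).

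P3h3, a relative of P3h1 that in mouse skin is needed for lysine hydroxylation of collagen, rose furthest after P4ha3. It measured 84.6, 97.0 and 64.3 CPM in MI, against 8.05, 7.61 and 7.70 CPM in Sham, a rise of 10.5-fold (95% interval 7.25 to 15.3; log2 3.40 ± 0.24, adjusted p = 1.32e-05, edgeR). The Sham libraries lay close together and far below MI. Per 100 reads of P3h1 there were 188, 194 and 163 reads of P3h3 in MI and 52.4, 64.0 and 57.7 in Sham, so that the larger of the pair by reads was P3h3 in MI and P3h1 in Sham (log2 difference of the ratio 1.65, exact permutation p = 0.1, adjusted 0.188). Per kilobase, P3h3 averaged 28.7 CPM in MI and 2.73 CPM in Sham, and P3h1 averaged 13.3 CPM in MI and 4.03 CPM in Sham.

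Serpinh1 encodes Hsp47, the chaperone that binds the procollagen triple helix on its way to the Golgi. It was the most abundant of the 10 genes per kilobase in every group, at 249 ± 19.3 CPM in MI+BPD, 288 ± 68.5 CPM in MI and 91.6 ± 5.16 CPM in Sham (SD, n = 3 each). Its libraries read 614, 899 and 603 CPM in MI, against 216, 238 and 217 CPM in Sham (log2 fold change 1.66 ± 0.17, adjusted p = 6.54e-05, edgeR). MI 2 was well above the other MI libraries. Next to Serpinh1, Crtap was second per kilobase in MI+BPD and MI (39.4 ± 4.57 and 46.7 ± 7.19 CPM) and the fifth in Sham (12.5 ± 0.862 CPM), while Plod1 was second in Sham (24.6 ± 1.11 CPM). Crtap and Plod2 were neighbours in that order in MI (46.7 ± 7.19 and 44.3 ± 7.84 CPM) and in MI+BPD (39.4 ± 4.57 and 36.5 ± 2.84 CPM). Their means differed by less than the SD between libraries. Within each library of both groups Crtap lay above Plod2, by little in MI 1 (49.4 and 48.8 CPM), and this difference was not tested. P4ha3 was lowest in all 3 groups.

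**Figure D3:**
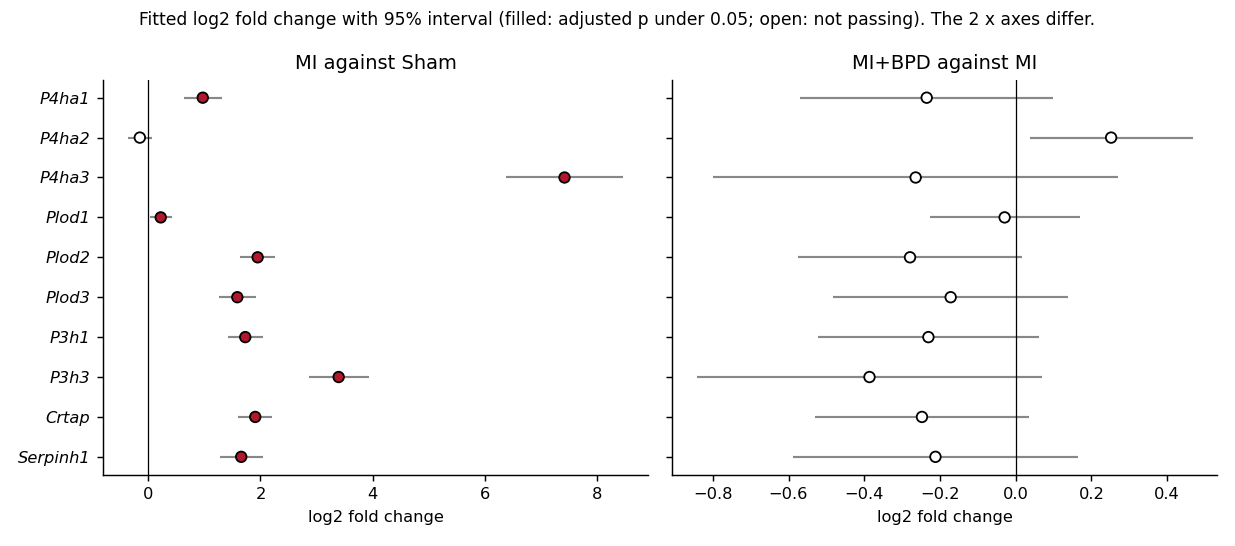
Fitted log2 fold change of each gene with its 95% interval, MI against Sham on the left and MI+BPD against MI on the right; filled points passed an adjusted p of 0.05 and open points did not, and the x axes differ in scale. On the left 9 of 10 points are filled, from 0.22 to 7.43; on the right none is, and 9 of 10 lie below 0.

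MI+BPD was then set beside MI. None of the 10 genes passed, and 0 of the 15138 genes tested passed either, so 0% of all genes were called by edgeR; at an unadjusted p under 0.05 there were 1 of the 10 genes (P4ha2) and 13.5% of all genes. DESeq2 called 0 of the 10 genes and 0.337% of all genes, and limma-voom called 0 of the 10 and 6.55% of all. In the edgeR fit, 9 of the 10 log2 differences were below 0, against 49.3% of all genes, and their median was -0.23, against 0.00 over all genes. That median was -0.08 without MI 2 and -0.13 with both MI 1 and MI+BPD 1 left out. The differences ran from -0.39 for P3h3 to 0.25 for P4ha2.

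P3h3 measured 42.9, 71.4 and 73.6 CPM in MI+BPD, against 84.6, 97.0 and 64.3 CPM in MI. The groups overlapped, with MI+BPD 1 the lowest of all 6 libraries, and the log2 difference was -0.39 ± 0.20 (95% interval -0.84 to 0.07; adjusted p = 0.409, edgeR). Without MI+BPD 1 it was -0.20.

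Plod2 measured 124, 138 and 145 CPM in MI+BPD, against 182, 182 and 131 CPM in MI. MI 3 lay among the MI+BPD libraries, while MI 1 and MI 2 lay above them. The log2 difference was -0.28 ± 0.13 (95% interval -0.57 to 0.02; adjusted p = 0.377, edgeR). Without MI 3, the MI library with the highest cardiomyocyte markers, Plod2 was called lower in MI+BPD (-0.42, adjusted p = 0.0354, edgeR), as were 1.47% of the genes tested in that fit, and 8.76% were called in either direction.

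Crtap measured 57.1, 69.9 and 70.9 CPM in MI+BPD, against 82.9, 87.4 and 64.6 CPM in MI (log2 difference -0.25, 95% interval -0.53 to 0.04). P3h1 measured 32.3, 41.3 and 40.9 CPM in MI+BPD, against 45.1, 49.99 and 39.4 CPM in MI (-0.23, -0.52 to 0.06). For both, as for Plod2, MI 3 was the MI library that overlapped with MI+BPD, and MI+BPD 1 was the lowest MI+BPD library. Plod3 measured 43.7, 60.2 and 59.9 CPM in MI+BPD, against 60.1, 70.9 and 53.6 CPM in MI (-0.17, -0.48 to 0.14; -0.06 without MI 2 or without MI+BPD 1).

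Serpinh1 measured 558, 619 and 650.3 CPM in MI+BPD, against 614, 899 and 603 CPM in MI. The log2 difference of -0.21 (95% interval -0.59 to 0.16) rested on MI 2, since without that library it was 0.00. P4ha1 measured 94.8, 114 and 100.3 CPM in MI+BPD, against 105, 142 and 117 CPM in MI (-0.23, -0.57 to 0.10; -0.11 without MI 2). P4ha3 measured 14.4, 17.6 and 19.4 CPM in MI+BPD, against 21.6, 27.2 and 12.9 CPM in MI, and all 3 MI+BPD libraries lay inside the MI range (-0.26, -0.80 to 0.27). Without MI 2 the difference of P4ha3 was -0.01, and without MI 3 it was -0.51. Plod1 measured 94.1, 106 and 104 CPM in MI+BPD, against 92.6, 109 and 108 CPM in MI, likewise inside the MI range (-0.03, -0.23 to 0.17).

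P4ha2 went the other way from the rest. It measured 51.7, 41.9 and 40.7 CPM in MI+BPD, against 36.7, 37.7 and 38.3 CPM in MI, and was the only one of the 10 genes whose libraries did not overlap; among all genes 6.63% lay wholly higher and 7.32% wholly lower in MI+BPD. The log2 difference was 0.25 ± 0.10 (95% interval 0.04 to 0.47; unadjusted p = 0.0264 and adjusted p = 0.369, edgeR). MI+BPD 1, which also had the highest cardiomyocyte markers of the 6 libraries, was the highest for P4ha2, and without it the difference was 0.12. Scaled by library totals alone, it was 0.04, where the median of all genes was -0.20.

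Reads of P4ha2 per 100 reads of P4ha1 were 54.6, 36.8 and 40.6 in MI+BPD, against 34.9, 26.6 and 32.9 in MI. All 3 MI+BPD libraries were above all 3 MI libraries and below the lowest Sham library, at 59.1. The log2 difference of the ratio was 0.47 (exact permutation p = 0.1, adjusted 0.188), and 0.31 without MI+BPD 1. Of the 10 ratios computed between collagen hydroxylases, chaperones and P4hb it was the only one whose libraries did not overlap between MI+BPD and MI. Between MI and Sham 7 of the 10 did not overlap. Groups without overlap give an exact permutation p of 0.1, so 1 such ratio among 10 does not set this pair apart. The share without overlap among ratios of other genes was not computed.

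MI+BPD was also set beside Sham, a comparison that shares the Sham libraries with that of MI and the MI+BPD libraries with that of MI+BPD against MI. Of the 10 genes, 8 rose, while P4ha2 and Plod1 did not pass; of all genes 31.8% rose and 27.8% fell, 59.6% in all. The libraries lay wholly above Sham for 9 of the 10 genes and for 35.8% of all genes, and wholly below for 0 and for 32.7%. The median log2 fold change was 1.47 over the 10 genes and 0.04 over all genes. The log2 fold change of P4ha3 was 7.16 ± 0.47, that of P3h3 3.01 ± 0.24, and those of Plod2, Crtap, P3h1, Serpinh1 and Plod3 were 1.67, 1.66, 1.498, 1.44 and 1.41 (adjusted p at most 2.06e-04 for these 7 genes, edgeR). P4ha1 differed by 0.73 ± 0.15 (adjusted p = 0.00288, edgeR), Plod1 by 0.19 ± 0.09 (adjusted p = 0.0908, edgeR) and P4ha2 by 0.10 ± 0.10 (adjusted p = 0.403, edgeR). Per kilobase, P4ha2 made up 37.3% ± 5.13 of its family in MI+BPD and 54.4% ± 4.22 in Sham, and Plod2 45.0% ± 1.06 of its family in MI+BPD and 27.1% ± 1.64 in Sham (SD, n = 3 each).

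The reads of the 10 genes were also set against those of 3 fibrillar collagen chains. Col1a1, Col1a2 and Col3a1 together measured 15623, 13006 and 14471 CPM in MI+BPD and 14900.5, 16566 and 9947 CPM in MI, against 359, 319 and 407 CPM in Sham. Set against these reads, 9 of the 10 genes were lower in MI than in Sham and P4ha3 was higher, all 10 with no overlap. The denominator is far larger in MI, and on this measure 99.4% of all genes tested were lower, 96.5% wholly so, and 0.601% were wholly higher, so the 9 are no result about these genes. The median over the 10 genes lay above that over all genes (log2 difference -3.55 and -5.16, the second with 0.5 added to each count). Each of the 10 comparisons gave the smallest p the test allows (exact permutation p = 0.1, adjusted 0.136 over the 30 comparisons made). Serpinh1 had 41.1, 54.2 and 60.6 reads per 1000 collagen reads in MI, against 601, 746 and 534 in Sham. P4ha2 lay at the low end, with a log2 difference of -5.38 (2.45, 2.27 and 3.85 reads per 1000 in MI, against 111, 139 and 101 in Sham). Of the 9, P3h3 had the smallest difference, -1.86, with 5.66, 5.84 and 6.46 reads in MI, against 22.4, 23.8 and 18.9 in Sham. P4ha3 had 1.45, 1.64 and 1.29 reads in MI, against 0.510, 0.274 and 0.187 in Sham, from 4 Sham counts in all.

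**Figure D4:**
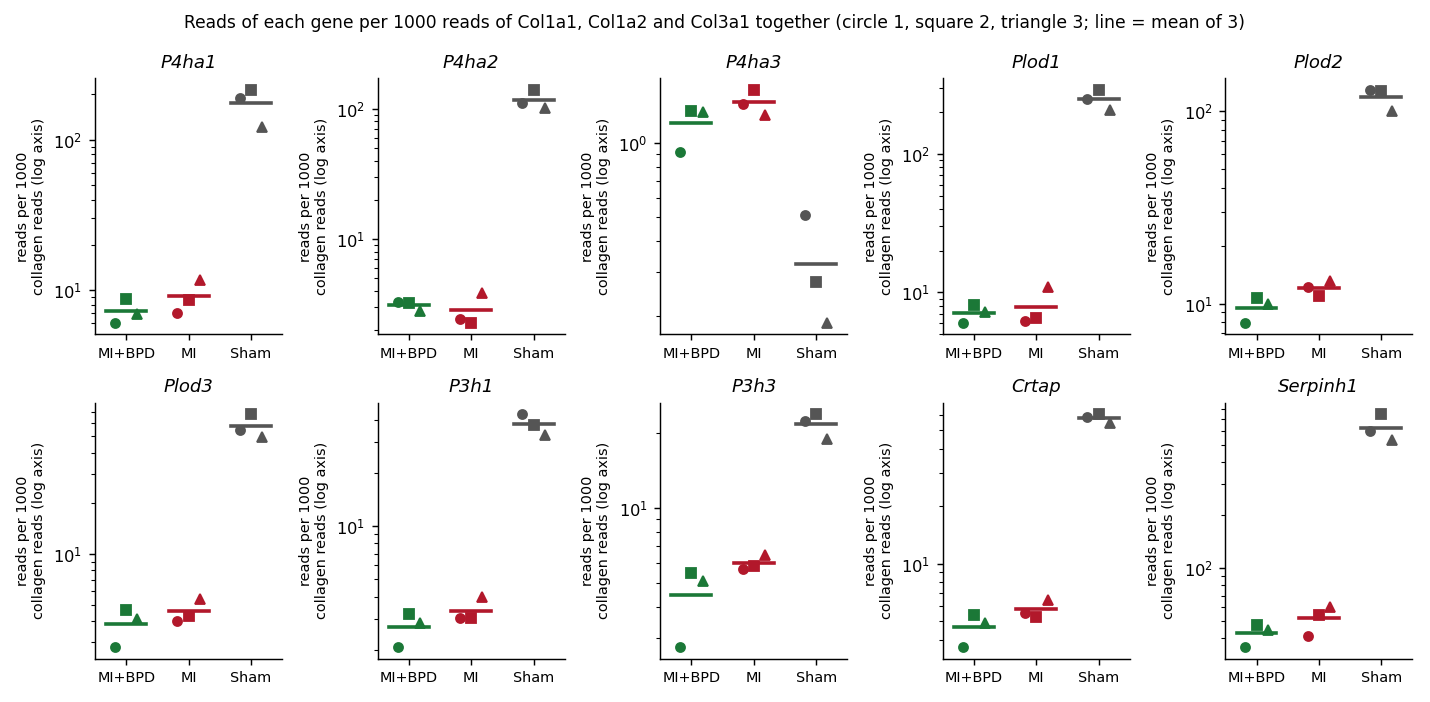
Reads of each gene per 1000 reads of Col1a1, Col1a2 and Col3a1 together, on a logarithmic axis that differs between panels, with MI+BPD, MI and Sham from left to right; symbols mark the library number and lines the mean of 3 libraries. Sham lies above both infarct groups in every panel but that of P4ha3.

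Between MI+BPD and MI, the same measure was lower in MI+BPD for 9 of the 10 genes, with a median log2 difference of -0.30, against 64.2% of all genes and a median of -0.08. The libraries lay wholly lower in MI+BPD for 2 of the 10 genes and for 5.05% of all genes, and wholly higher for 0 and for 0.462%. Plod2 had 7.93, 10.6 and 9.99 reads per 1000 collagen reads in MI+BPD, against 12.1, 10.9 and 13.1 in MI (log2 difference -0.35, exact permutation p = 0.1, adjusted 0.136). P3h3 had 2.75, 5.49 and 5.08 reads in MI+BPD, against 5.66, 5.84 and 6.46 in MI (-0.49, exact permutation p = 0.1, adjusted 0.136). MI+BPD 1 was far below the others for P3h3, and without it the difference was -0.18.

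The other genes of the collagen pathway were read from lists by function, against the 37% of all genes that rose in MI and the 31.9% that fell. Of 12 folding partners, 9 rose in MI against Sham, 1 fell and 2 did not pass (median log2 fold change 1.12). Sparc, a collagen-binding glycoprotein, rose by 3.62, and the proline isomerases Fkbp10, Fkbp14 and Fkbp7 rose by 1.70, 1.36 and 1.34 on the log2 scale (adjusted p at most 3.31e-05, edgeR). The gene that fell was Tmem38b, an ion channel subunit of the endoplasmic reticulum (-0.55, named after its value was seen). General chaperones of the endoplasmic reticulum moved less: 7 of 12 rose, 2 fell and 3 did not pass (median 0.40). Pdia4, Pdia3, Dnajc3 and Pdia6, disulfide isomerases and a co-chaperone, rose by 1.25, 1.18, 0.83 and 0.71, while Hspa5 and Canx, named after their values were seen, fell by 0.59 and 0.51; scaled by library totals alone, neither these genes nor Tmem38b were called lower.

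Of 12 genes of procollagen export, 4 rose, 6 fell and 2 did not pass (median -0.13). The share that rose was close to the 37% of all genes, and the share that fell was above the 31.9% of all genes. Sec24d, a subunit of the coat that packs large cargo, rose by 0.95, and Sar1b, Mia2 and Preb fell by 1.26, 0.73 and 0.45 on the log2 scale; with library totals only Mia2 was at 0.00 and Preb at 0.28, and 8 of the 12 were higher. Of 8 genes of propeptide processing, 5 rose, 1 fell and 2 did not pass (median 1.98). The procollagen proteases Bmp1 and Adamts2 rose by 2.64 and 4.25, and the enhancers Pcolce and Pcolce2 by 2.30 and 1.79; Tll2, named after its value was seen, fell by 2.61. All 5 lysyl oxidases, all 11 fibrillar collagen chains and all 6 collagen IV chains rose (medians 4.18, 5.19 and 1.73).

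Collagen hydroxylases belong to the 2-oxoglutarate dioxygenases, and 18 other enzymes of that class were read beside them: in MI against Sham 1 rose, 15 fell and 2 did not pass (median -0.56). The hydroxylase of hypoxia-inducible factors Egln1 fell by 1.63, the peroxisomal Phyh by 1.95, and the RNA demethylases Fto and Alkbh5 by 0.53 and 0.52 on the log2 scale. The 1 that rose, Bbox1, named after its values were seen, had no count in Sham. Scaled by library totals alone, the direction of this list turned, with 8 higher and 3 lower; Fto and Alkbh5 were then at 0.21 each and the list's median at 0.17, below the median of all genes of 0.81. Egln1, like the summed cardiomyocyte markers, was highest in Sham and lowest in MI 1 and MI 2, at 327, 217 and 221 CPM in MI+BPD and 144, 162 and 234 CPM in MI, against 553, 574 and 546 CPM in Sham. Of 12 hypoxia-response genes, 3 rose, 5 fell and 4 did not pass (median 0.16), beside 37% of all genes that rose and 31.9% that fell. Vegfa, Pdk1 and Bnip3 fell by 1.25, 1.0006 and 0.86. Car9 rose by 3.04 and was low throughout, at 1.74, 1.38 and 1.15 CPM in MI, against 0.183, 0 and 0.305 CPM in Sham, and by 2.49 without Sham 2 and 3.89 without Sham 3. Scaled by library totals alone, Vegfa was still called lower and Pdk1 and Bnip3 did not pass.

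**Figure D5:**
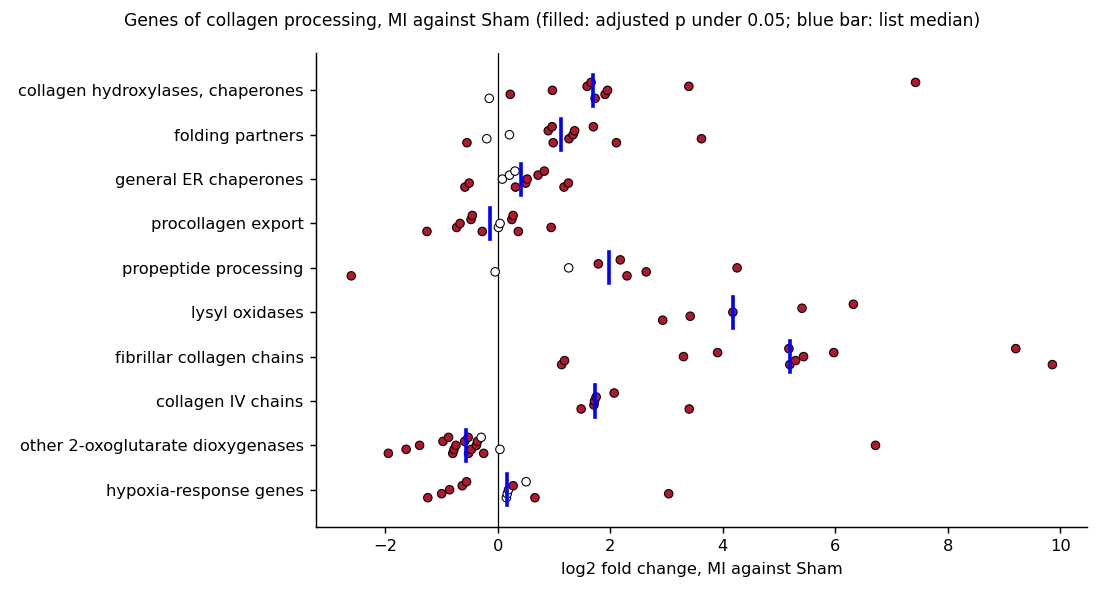
Log2 fold change of MI against Sham for each gene of the collagen pathway lists, filled where the adjusted p was under 0.05 and open where it was not, with the list median as a blue bar. Folding partners, propeptide processing, lysyl oxidases and collagen chains lie mostly to the right of 0, and 16 of the 18 other 2-oxoglutarate dioxygenases lie to the left.

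In MI+BPD against MI no gene of these lists passed in the main edgeR fit, and neither did any other of the 15138 genes tested. In edgeR fits that left out 1 library, up to 3 of the other dioxygenases were called. Such fits also called up to 1 gene each of the collagen IV chains, folding partners, procollagen export genes and hypoxia-response genes. Over all genes tested, 49.3% of log2 differences were below 0. The median was -0.07 for folding partners (9 of 12 below 0) and -0.13 for general chaperones (11 of 12 below 0). It was -0.43 for collagen IV chains (6 of 6 below 0) and -0.30 for lysyl oxidases (4 of 5 below 0). MI+BPD 1 was the lowest infarct library for every collagen IV chain and for every lysyl oxidase but Loxl2. Col4a1 measured 727, 1322 and 1170 CPM in MI+BPD, against 1403, 1574 and 1319 CPM in MI. Loxl1 measured 179, 316 and 364 CPM in MI+BPD, against 352, 417 and 273 CPM in MI. Fibrillar collagen chains were split, with a median of -0.13 (6 of 11 below 0). So were propeptide processing genes (0.03, 4 of 8 below 0) and hypoxia-response genes (0.02, 5 of 12 below 0). Other 2-oxoglutarate dioxygenases had a median of 0.17 (17 of 18 above 0, but -0.04 with library totals only) and procollagen export genes one of 0.10 (10 of 12 above 0). In MI+BPD against Sham, 31.8% of all genes tested rose and 27.8% fell. Of 12 folding partners, 9 rose and 1 fell, and of 12 general chaperones, 4 rose and 2 fell. Of the 18 other dioxygenases, 1 rose and 14 fell (2 and 3 scaled by library totals alone). Of 12 procollagen export genes, 4 rose and 5 fell, and of 12 hypoxia-response genes, 3 rose and 5 fell. Of 8 propeptide processing genes, 5 rose and 1 fell. All 5 lysyl oxidases, 11 fibrillar collagen chains and 6 collagen IV chains rose.

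The genes most like each member were sought by the root mean square difference between log2 CPM profiles over the 9 libraries, each centred on its gene's mean, among 12596 genes. All profiles share the 9 libraries and the contrast between Sham and the infarct libraries. Among the 10 genes, the closest pair was Plod2 and Crtap (0.0755), followed by Plod3 and Serpinh1 (0.109) and P3h1 and Crtap (0.113), while the closest of the 10 to P4ha3 was P3h3 at 1.54. Outside the 10, P4ha3 was closest to Mfap4 (0.291), Lox (0.334) and Dkk3 (0.360), and P3h3 to Mpeg1 (0.0947), Fzd2 and Mxra8. Serpinh1 was closest to Litaf (0.0897), Septin11 and Tmed3, Crtap to Arsb (0.0742), Myh10 and Exoc3l2, and P3h1 to Arhgef25 (0.0544), Pcdhgc3 and Arfgap3. The nearest genes were Specc1 (0.0609), Prkcd and Entpd7 for Plod2, Fut11 (0.0552), Pls3 and Rin2 for Plod3, and Septin7 (0.0447), Nop58 and Ctnnb1 for Plod1. P4ha1 was nearest to Mcm4 (0.0962), Dubr and Tead2, and P4ha2 to Abl2 (0.0645), Crocc and Bahd1.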

How the data were processed

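Libraries were made from total RNA extracted with TRIzol (RNA integrity number above 7.0) and sequenced as 150 bp paired ends, per the labels' protocols. The authors deposited raw counts of reads for each gene symbol, not normalized. STAR and the builds mm10, GRCm39 and mm39 are named in the submitters' processing notes; which build and annotation the counting used, with which program and strand setting, is not given in the sources used here. Of the symbols, 96.3% are GENCODE M21 gene names. Reads carry no molecular identifiers, so counting intervals cover counting error only.

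Counts were fitted in R 4.3.3 with edgeR 4.0.16 (TMM factors, filterByExpr with a minimum count of 10 and total of 15, robust quasi-likelihood fit with 1 mean per group over all 9 libraries, 6 residual degrees of freedom), adjusted by Benjamini-Hochberg over 15138 genes, and called at an adjusted p under 0.05; all tests were 2-sided. All 10 genes passed the filter. SE follows from the F statistic. Ratios of reads were compared by exact permutation, whose smallest p here is 0.1, so it cannot reach 0.05. The fit was tested on simulated data in which only a small share of genes changed. That test does not cover the choice of scaling where many genes differ, as between MI and Sham here. Alternatives were DESeq2 1.42.0, limma-voom (limma 3.58.1), other scalings, filters, thresholds and sample choices.

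Members and lists were chosen with earlier results of these data known. Named genes are the 10 members, up to 4 genes of smallest adjusted p in MI against Sham per list and P4hb, and the 3 nearest genes per member with a mean of at least 1 CPM; genes outside the rule are marked. The labels do not say whether libraries of a group come from separate animals, so p-values measure the spread between these samples, which may be technical.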

Additional observations from a re-analysis of the deposited data

How the results depend on the processing

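Of the 10 genes, 7 to 10 were called in MI against Sham and 7 to 10 in MI+BPD against Sham under every alternative run. Called genes among all tested in MI against Sham fell to 5158 with a 2-fold threshold, against 10429 without it, and in MI+BPD against Sham to 3801, against 9018. In MI+BPD against MI, DESeq2 called 51 genes and limma-voom 992; leaving out 1 library gave 0 to 1353 genes and 0 to 1 of the 10, the highest counts being those without MI 3. With library totals only, calls in MI against Sham were 10488 higher and 1765 lower, against 5594 and 4835, P4ha2 was at 0.58, Mia2 at 0.00197, Preb at 0.28, Fto at 0.205 and Alkbh5 at 0.211; relative to the median of all genes the 10 genes had a median of 1.62 under this and the main scaling.

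Leaving out 1 library turned some small log2 differences, which ran from -0.10 to 0.012 for Plod1 and from -0.31 to 0.0016 for Serpinh1 in MI+BPD against MI, and from -0.050 to 0.16 for P4ha2 in MI+BPD against Sham (-0.047 without MI 1 and MI+BPD 1). For ratios in MI+BPD against MI the ranges were -0.26 to 0.19 for P4ha3 to P4ha1, -0.18 to 0.0034 for Plod2 to Plod3, -0.031 to 0.053 for P3h1 to Crtap and -0.082 to 0.15 for Serpinh1 to Crtap, and for Plod1 to fibrillar collagen -0.26 to 0.14. For P4ha1 to P4hb they were -0.089 to 0.20 in MI against Sham and -0.26 to 0.021 in MI+BPD against Sham. The cause of these shifts was not tested.

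The labels state no link between same-numbered libraries. Between MI+BPD and MI, deviations of same-numbered libraries from their group means correlated at 0.143, 0.194 and -0.158. Differently numbered libraries of these groups correlated at -0.277 to 0.207. Same-numbered pairs with Sham correlated at most at 0.00277. With 3 libraries per group these values cannot decide whether the numbers mark pairs. With a replicate block, 8, 0 and 8 of the 10 genes were called and 10054, 0 and 8457 of all genes, in the order MI to Sham, MI+BPD to MI, MI+BPD to Sham; Plod1 was the call that differed (adjusted p = 0.0598, edgeR). Plod1 in MI against Sham was also not called without a filter on low counts (0.0540, edgeR) or with only the groups compared (0.0695, edgeR). Counts for the pathway lists under the alternatives were added after seeing the data.

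Depth limits P4ha3, whose Sham level rests on 4 counts.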
